A study of Homo sapiens with 12 samples.

Results

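Antibody blockade of PD1 alone was compared with antibody blockade of LAG3 alone in the same co-culture of T and B cells. The comparison rests on 6 of the 12 RNA-seq libraries of the series, chosen by their treatment labels: 3 anti-PD1 libraries and 3 anti-LAG3 libraries, matched at antibody doses of 1, 0.1 and 0.01 µg/ml. In every library, Jurkat cells labelled LAG3+ and PD1+ (a T leukaemia line) had been cultured for 24 h with Raji-PDL1 cells (a Burkitt lymphoma B line) loaded with SED. The anti-PD1 group received the antibody MK3475 and the anti-LAG3 group the antibody MK4280, each with an isotype antibody at an equal dose. The 3 isotype libraries received isotype antibody in place of both, and 3 further libraries received both blocking antibodies. Each condition was 1 library made from pooled wells of 1 pair of cell lines, so no dose was repeated. No label says that libraries came from separate cultures, so p-values speak only to differences between these libraries, which may be technical.

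PD1 and LAG3 are inhibitory receptors of activated T cells. PD1 binds PD-L1 (encoded by CD274) and recruits phosphatases that dampen signalling from the T cell receptor and CD28, whereas LAG3 binds MHC class II on the antigen-presenting cell. SED, a staphylococcal enterotoxin, is a superantigen that bridges the T cell receptor and MHC class II, and receptor signalling then induces early genes such as EGR1, EGR2, EGR3, NR4A1 and CD69.

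The 6 libraries held 23593973 to 31651624 counts. The targets were read first. PDCD1, which encodes PD1 (chr2:241849881-241858908), stood at 228, 218 and 227 CPM (counts scaled to library size) under anti-LAG3 in order of falling dose, and at 203, 210 and 204 under anti-PD1. The 3 anti-PD1 values lay below the 3 anti-LAG3 values, and the fitted difference was -0.12 ± 0.05 (log2, SE, n = 3 libraries per group). It missed the threshold (edgeR's quasi-likelihood test, adjusted p = 0.975, unadjusted p = 0.0373). CD274 (chr9:5450503-5470566) overlapped, at 82.6, 81.1 and 90.1 CPM under anti-LAG3 and 84.0, 90.8 and 91.1 under anti-PD1. LAG3 transcripts were near absent although the line is labelled LAG3+: 0 counts in each anti-LAG3 library and 2, 0 and 1 in the anti-PD1 libraries, where a count of 0 allows up to 3. IL2 and IFNG, the cytokines of activated T cells, had 0 to 3 counts in these libraries. None of the 3 passed the filter on low counts, so none was tested.

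The first question was whether the arms differed in mean expression over the matched doses. Of 15535 genes tested, 0 passed an adjusted p of 0.05 (0.0% called) in a model of arm and dose fitted to all 12 libraries, where the smallest adjusted p was 0.975. At an unadjusted p under 0.05 there were 691 genes (4.45%), 355 higher under anti-PD1 and 336 lower, and DESeq2 called 0, with 331 at an unadjusted p under 0.05. That model gives every arm a common dose effect, isotype and combination included, so unlike dose responses among them widen its errors. When only the 6 libraries were fitted with the same terms, 6 genes passed, all lower under anti-PD1: NR4A3, ADA, EGR3, TMSB4XP4, MYO7B and CTSG. That fit drops the isotype and combination libraries and keeps a common dose effect for the other arms. A model with a separate dose slope for each arm, chosen after seeing the data, called 3 genes at the middle dose: ADA and EGR1 lower under anti-PD1, and MT-TV higher.

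The intervals say how far apart the arms could be. Of all genes tested, 10820 (69.6%) had a 95% interval of the arm difference wholly inside 0.5 log2 units on either side of 0. Among the 8773 genes with a mean of at least 10 CPM, 8683 did (99.0%), with a median interval width of 0.24. Among the 6762 genes with lower means only 2137 did (31.6%), and their median width was 1.03, so for most low genes a difference of that size was not detectable here. Over the genes of at least 10 CPM, the median absolute log2 ratio between an anti-PD1 and an anti-LAG3 library was 0.0616 to 0.0849 at a matched dose. Between libraries of 1 arm it was 0.0520 to 0.0709 for anti-LAG3 and 0.0629 to 0.0751 for anti-PD1. Single blockade libraries at a matched dose were thus about as close as libraries of 1 arm at other doses. At a matched dose, anti-LAG3 and isotype libraries were 0.0956 to 0.113 apart and anti-PD1 and isotype libraries 0.0829 to 0.111. The isotype libraries were 0.0460 to 0.0904 apart among themselves, which overlaps the gap to anti-PD1. Combination and isotype libraries at a matched dose were 0.0579 to 0.0895 apart, about as close as the single blockades.

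Against the isotype libraries, which both arms share as controls, anti-LAG3 changed 1560 genes (10.0%), 758 higher (4.88%) and 802 lower (5.16%). Anti-PD1 changed 594 (3.82%), 325 higher (2.09%) and 269 lower (1.73%). The larger count for anti-LAG3 does not show that the arms differ at any gene, since the direct comparison called 0. Both counts moved with single libraries: anti-LAG3 called 687 genes without its library at 1 µg/ml and 474 without that at 0.1 µg/ml (against 601 for anti-PD1), and anti-PD1 called 201 without its library at 0.1 µg/ml and 0 without that at 0.01 µg/ml. With an offset for gene length and GC content the counts were 746 and 45, and with the balance of T and B markers as a covariate they were 136 and 785, which reverses their order.

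Among the early response genes, the promoters of EGR1 and EGR2 are shown because, of the windows read, they hold a CArG box, the site of serum response factor and a textbook element of EGR gene control. The sequences are the 250 bases before a start site, from RefSeq on GRCh38.p14, 5′ to 3′, with each CArG box in capitals. The EGR1 window is chr5:138465229-138465478 (plus strand, outside any GENCODE 29 gene), and the EGR2 window is chr10:62816367-62816616 (minus strand, the third of its 3 start sites, intronic in longer transcripts).
EGR1: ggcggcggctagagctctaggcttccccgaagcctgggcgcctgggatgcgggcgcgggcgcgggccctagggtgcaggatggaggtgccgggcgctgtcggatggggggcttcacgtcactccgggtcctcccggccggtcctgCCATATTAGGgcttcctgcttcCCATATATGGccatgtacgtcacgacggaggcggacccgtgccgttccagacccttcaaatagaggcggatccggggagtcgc
EGR2: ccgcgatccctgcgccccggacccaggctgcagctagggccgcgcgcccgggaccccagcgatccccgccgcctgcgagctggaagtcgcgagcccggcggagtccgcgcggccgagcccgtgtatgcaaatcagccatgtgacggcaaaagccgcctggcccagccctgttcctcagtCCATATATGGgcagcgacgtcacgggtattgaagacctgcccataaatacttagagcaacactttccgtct
The EGR1 window holds 2 CArG boxes and this EGR2 window 1, searched on both strands. The other windows read, those of FOS, NR4A1, NR4A3, DUSP2, LCP2, PRKCH, CASC15, UBASH3B and ADA and of the other EGR2 start sites, held 0. Bases further upstream than 250 were not read, so a box there would be missed. EGR3, CD69 and IER3 had no window in the table. Of the 10 genes with a dose slope in both arms, 4 had a window in the table and 1 of these, EGR1, holds the box. Of 35116 such windows in the table, 407 hold at least 1 (1.16%) and 11 hold 2 or more. A match is a description of the letters, and no factor was measured.

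EGR1, a zinc-finger transcription factor induced within minutes of receptor signalling (gene at chr5:138465490-138469315), stood at 52.1, 31.5 and 16.7 CPM under anti-LAG3 in order of falling dose. Under anti-PD1 it stood at 33.4, 20.5 and 16.2, and in the isotype libraries at 18.2, 16.8 and 18.5. Both antibodies brought EGR1 above isotype at the upper doses and neither did at 0.01 µg/ml, and the anti-LAG3 value was the higher at each dose. The fitted arm difference was -0.47 ± 0.36 (log2, SE, n = 3 per group; 95% interval -1.35 to 0.41, adjusted p = 0.975, edgeR). In the fit to the 6 libraries only it was -0.47 and did not pass (adjusted p = 0.164, edgeR). In the model with a dose slope per arm, chosen after seeing the data, it was -0.43 ± 0.07 (adjusted p = 0.00498, edgeR).

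EGR3, a related factor, showed the same order, at 10.7, 4.27 and 1.85 CPM under anti-LAG3 and 4.94, 2.45 and 1.67 under anti-PD1. EGR2, which restrains T cell activation, stood at 6.18, 3.19 and 1.70 CPM under anti-LAG3 and 2.79, 1.67 and 1.84 under anti-PD1. The isotype libraries held 1.92 to 2.04 CPM of EGR3 and 1.60 to 2.15 of EGR2, so the EGR2 value under anti-PD1 left the isotype range only at 1 µg/ml. NR4A3, an orphan nuclear receptor of the early response, was lower under anti-PD1 at each dose, at 9.92, 3.51 and 2.53 CPM under anti-LAG3 against 4.16, 2.08 and 1.97. NR4A1, its better known relative, was apart at the top dose (24.5 against 14.3 CPM) and close at the others (9.34 against 9.70, and 8.26 against 8.30). FOS, a subunit of AP-1, stood at 3.39, 1.44 and 0.980 CPM against 1.76, 0.978 and 0.942. In each of these genes the values of the 2 arms overlap, and the lowest anti-LAG3 dose lies below the top anti-PD1 dose.

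CD69, the early activation antigen at the T cell surface, was closer between the arms. It stood at 28.1, 19.5 and 12.1 CPM under anti-LAG3, 25.9, 15.9 and 11.5 under anti-PD1, and 11.2, 13.5 and 12.2 in the isotype libraries. Anti-LAG3 was the higher at each dose, by less than in EGR1 at 1 and 0.1 µg/ml, and the fitted arm difference was -0.16 ± 0.34 (adjusted p = 0.988, edgeR). The dose slopes were 0.60 ± 0.06 and 0.60 ± 0.07 (log2 per 10-fold dose, SE). The 95% interval of their difference ran from -0.19 to 0.18.

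**Figure D1:**
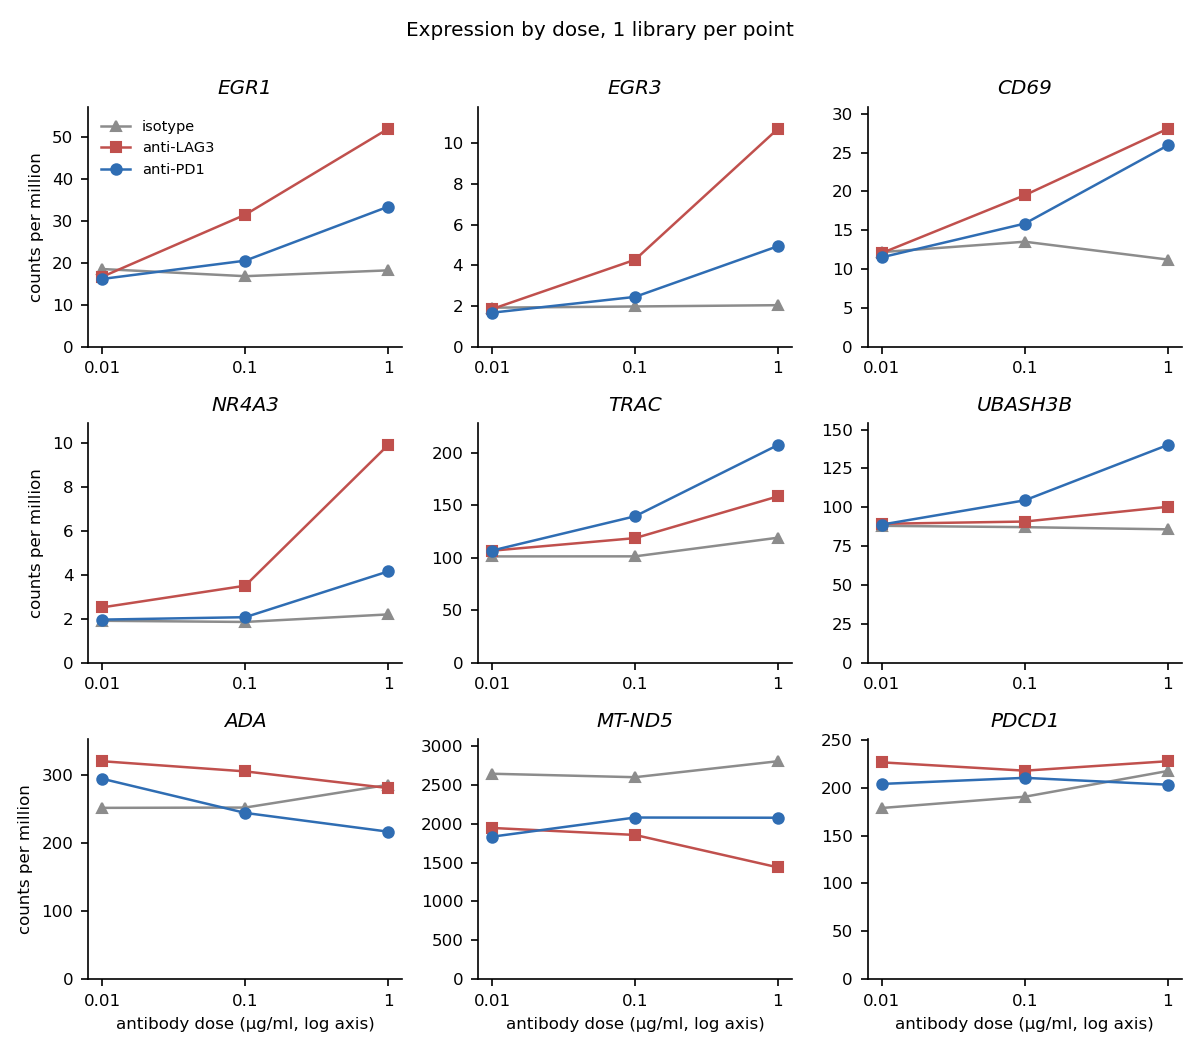
Expression in CPM (vertical axes, from 0) against antibody dose in µg/ml (log axis) for 9 genes, with 1 library per point, joined within each arm. EGR1, EGR3 and NR4A3 lie higher under anti-LAG3 at the upper doses, TRAC and UBASH3B lie higher under anti-PD1, and CD69 lies a little higher under anti-LAG3.

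Of the 52 genes of the list of early genes induced through the T cell receptor, 50 were tested and 0 differed in arm mean. The median difference was -0.05 against 0.00 over all genes tested, 34 members were lower under anti-PD1 and 16 higher. Of the 50, 26 had an interval inside the limits above (69.6% of all genes tested). The median was -0.08 at 1 µg/ml, and -0.01 at 0.1 and at 0.01 µg/ml. The smallest p in the list belonged to TNFRSF9, the costimulatory receptor 4-1BB. It was higher under anti-PD1 with no overlap (5.68% of all genes): 1.87, 2.04 and 2.18 CPM against 1.46, 1.52 and 1.36. TNFRSF9 had 53, 50 and 51 counts under anti-PD1, 46, 38 and 36 under anti-LAG3, and 62, 39 and 68 in the isotype libraries. Its difference was 0.49 ± 0.22 (adjusted p = 0.975, edgeR). ZFP36L1, which destabilises mRNAs, was next at 0.11 ± 0.05, and CSRNP1 had 0.12 ± 0.06.

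**Figure D2:**
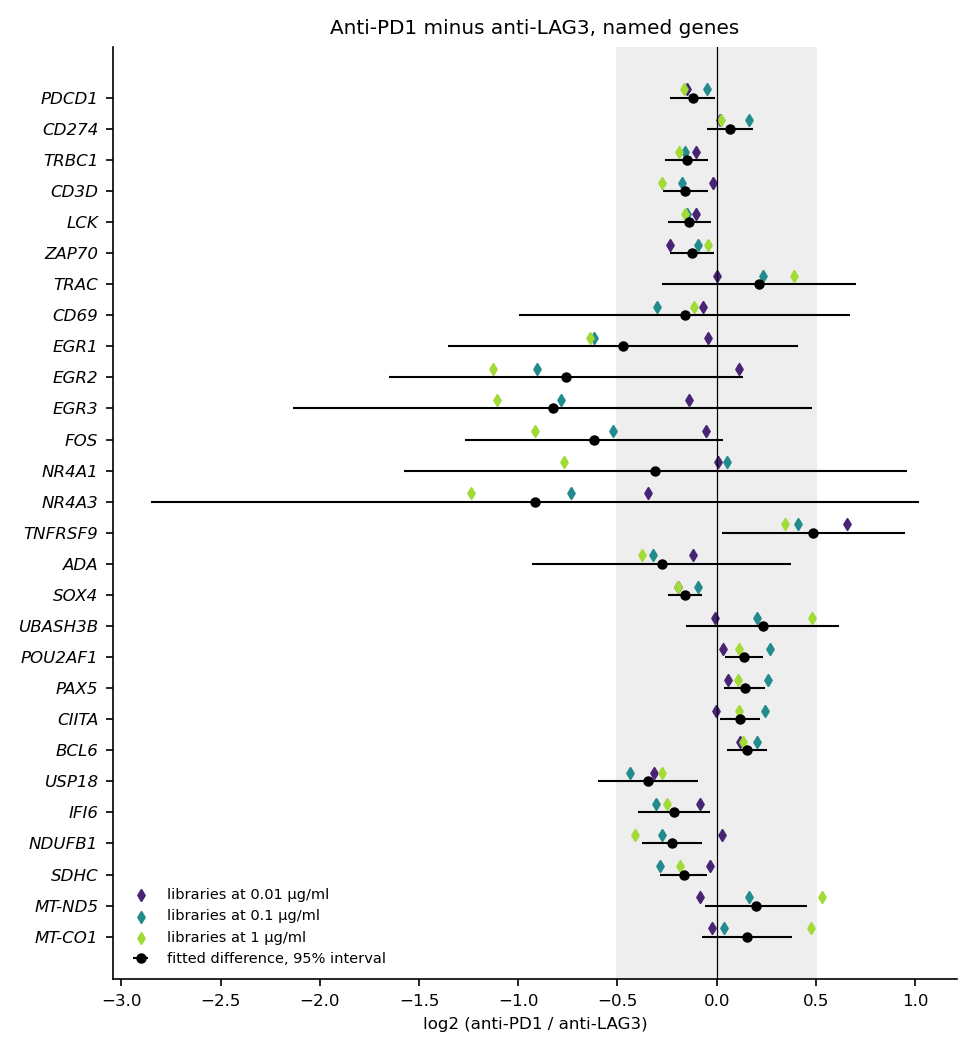
Log2 ratio of anti-PD1 to anti-LAG3 (horizontal axis) for 28 genes, named by the rule or described in the text. Black points and bars are the fitted arm difference and its 95% interval from 3 libraries per arm, diamonds are the single-library ratios at each dose, and the grey band spans 0.5 on either side of 0. Intervals of the early genes, such as EGR3 (-2.13 to 0.48), are wide, and those of PDCD1, LCK, PAX5 and SOX4 lie inside the band.

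The second question was whether expression followed dose alike in both arms. Each arm's slope was tested against 0, and the arms share no library in these tests. Anti-PD1 gave 32 genes with a slope (0.206% of those tested), 31 positive (0.2%) and 1 negative (0.00644%). Anti-LAG3 gave 28 (0.18%), 24 positive (0.154%) and 4 negative (0.0257%). The isotype libraries gave more, 133 of the 15535 genes, 115 positive and 18 negative. The slopes of the blockade arms were not tested against those of isotype. Called in both arms were 10 genes, all with positive slopes: EGR1, EGR3, CD69, IER3, SH2D2A, LCP2, PRKCH, TRAC, TRAV8-4 and CASC15. They are 31.2% of the anti-PD1 list and 35.7% of the anti-LAG3 list. Of the 32 anti-PD1 genes, 31 had the same sign of slope under anti-LAG3, and of the 28 anti-LAG3 genes, 25 had the same sign under anti-PD1. The share of same signs over all genes was not computed. Over genes of at least 10 CPM the slopes were only weakly correlated (Pearson 0.17, Spearman 0.05).

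LCP2 (the adaptor SLP-76), SH2D2A (the T cell adaptor TSAd) and PRKCH (protein kinase C eta) are signalling proteins, and their levels rose with dose in both arms. LCP2 stood at 51.4, 36.7 and 32.6 CPM under anti-LAG3 and 48.8, 38.7 and 32.1 under anti-PD1. SH2D2A stood at 10.5, 6.91 and 4.75 against 12.4, 6.12 and 5.52, and PRKCH at 64.6, 50.9 and 44.3 against 70.3, 55.6 and 43.8. The slopes of the arms differed by -0.03 for LCP2 (95% interval -0.18 to 0.11), 0.05 for SH2D2A (-0.25 to 0.35) and 0.07 for PRKCH (-0.06 to 0.19). IER3, an early gene that modulates apoptosis, had slopes of 0.74 ± 0.07 under anti-LAG3 and 0.55 ± 0.08 under anti-PD1, a difference of -0.19 with an interval of -0.41 to 0.03.

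Most of these calls were lost without the 1 µg/ml library of the arm, when 2 doses remain. Anti-PD1 then had 0 genes with a slope and anti-LAG3 had 1, EGR1, at a slope of 0.92 ± 0.12 (adjusted p = 0.000476, edgeR). Several estimates stayed about as large with wider errors, as under anti-PD1 for CASC15 (0.34 ± 0.09), PRKCH (0.34 ± 0.09) and TRAV8-4 (0.44 ± 0.08), and under anti-LAG3 for CD69 (0.69 ± 0.14) and EGR3 (1.21 ± 0.29). Others were smaller, as under anti-PD1 for EGR1 (0.34 ± 0.12), IER3 (0.23 ± 0.16) and SH2D2A (0.14 ± 0.21). The balance of T and B cell markers moved with dose as well: the mean log2 level of T markers minus that of B markers was -1.31, -1.37 and -1.43 under anti-LAG3 in order of falling dose, and -1.40, -1.51 and -1.59 under anti-PD1. With that balance as a covariate, the slopes called were 0 for anti-PD1 and 3 for anti-LAG3, the latter EGR1 (0.82 ± 0.10), EGR3 (1.54 ± 0.21) and CD69 (0.60 ± 0.11). Under anti-PD1 the slopes with the covariate were 0.55 ± 0.14 for EGR1, 1.25 ± 0.32 for EGR3, 0.60 ± 0.16 for CD69 and 0.31 ± 0.11 for PRKCH, each with a wider error than without it and the EGR3 slope larger. Those of LCP2 (0.06 ± 0.12) and SH2D2A (0.40 ± 0.26) were smaller. In bulk RNA, fewer cells of a type and less RNA per cell cannot be told apart.

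**Figure D3:**
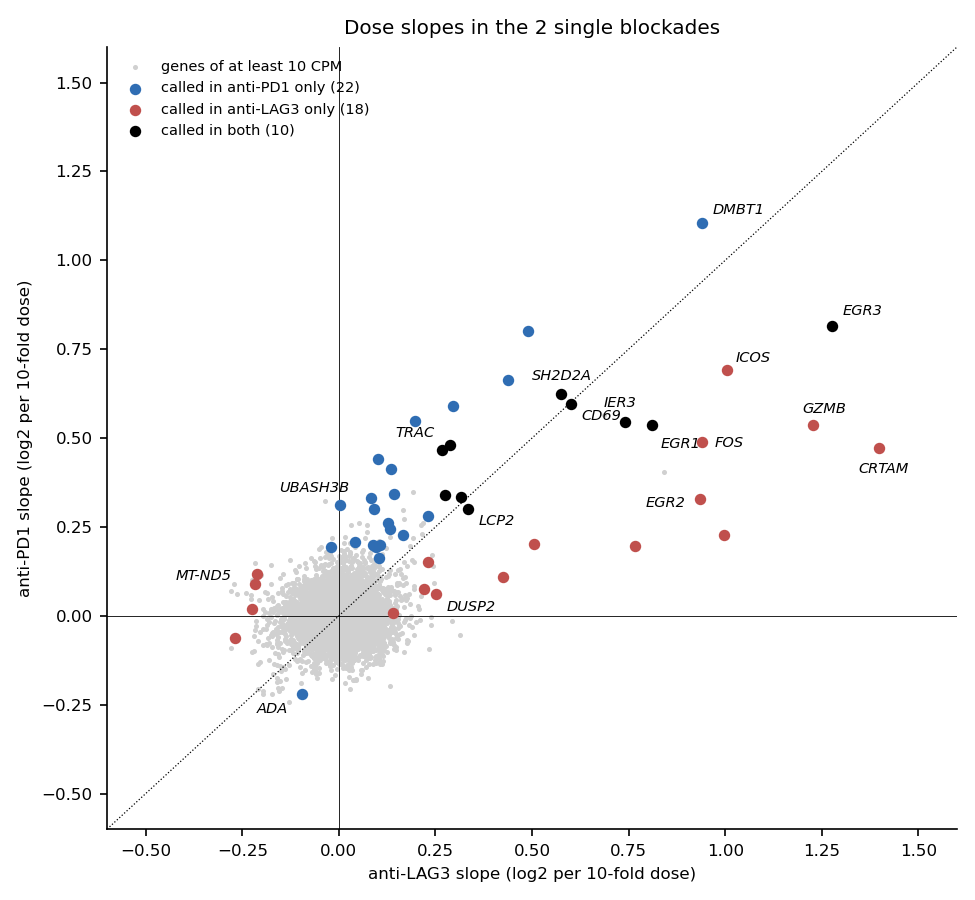
Slope of expression on dose under anti-PD1 (vertical axis) against that under anti-LAG3 (horizontal axis), both in log2 per 10-fold dose. Grey points are genes of at least 10 CPM, coloured points are genes called in 1 arm or both, the dotted line marks equal slopes, and XCL1 (3.25 under anti-LAG3) lies beyond the axes. Early genes such as EGR1 and EGR2 fall below the line, and TRAC and UBASH3B lie above it.

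Genes called only under anti-LAG3 included effector genes of activated T cells. XCL1, the chemokine lymphotactin, was near absent at the lowest dose: 42, 4 and 0 counts under anti-LAG3, 17, 7 and 1 under anti-PD1, and 1, 0 and 2 in the isotype libraries. Reads of its near-identical copy XCL2 may be split with it. GZMB, the cytotoxic protease granzyme B, had 105, 27 and 18 counts under anti-LAG3 and 33, 19 and 13 under anti-PD1. CRTAM, an adhesion receptor of activated T cells, had 82, 24 and 10 counts against 28, 23 and 11. ICOS, a costimulatory receptor, had 64, 22 and 14 against 47, 24 and 15. In all 4 genes the top anti-LAG3 dose held the most counts of the 6 libraries. EGR2, FOS and DUSP2, a phosphatase that turns off MAP kinases, were also called under anti-LAG3 only, DUSP2 with slopes of 0.25 ± 0.04 and 0.06 ± 0.04. That a slope passed in 1 arm only does not show that the slopes differ: the difference for XCL1 was -1.75 ± 0.81 (adjusted p = 0.904, edgeR), that for GZMB was -0.69 ± 0.33 and that for CRTAM was -0.93 ± 0.34. Of these genes all but EGR2 and FOS were chosen after their values were seen.

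The difference of slopes was therefore tested itself. Of 15535 genes, 0 passed (0.0%), with 845 at an unadjusted p under 0.05 (5.44%), 319 steeper under anti-PD1 (2.05%) and 526 shallower (3.39%). DESeq2 called 1, MT-ND5, with 226 at an unadjusted p under 0.05. The 95% interval lay within 0.5 log2 units of 0 for 8711 of the 8773 genes of at least 10 CPM (99.3%). Over those genes the slopes of the arms had a Pearson correlation of 0.17 and a Spearman correlation of 0.05, across genes that are not independent replicates and with depth and library preparation in common. In the list of early genes 8 members had a shallower slope under anti-PD1 at an unadjusted p under 0.05 and 0 a steeper one. EGR1 had a difference of -0.27 ± 0.08 (adjusted p = 0.691, edgeR), EGR3 -0.46 ± 0.19 and EGR2 -0.61 ± 0.21.

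The 5 genes with the smallest p for the slope difference were MT-ND5, MT-TL1, MT-ND4, UBASH3B and MYL6. UBASH3B encodes a phosphatase that restrains T cell receptor signalling (chr11:122655675-122814473). It stood at 140, 104 and 88.9 CPM under anti-PD1 in order of falling dose, 100, 90.8 and 89.4 under anti-LAG3, and 85.8, 87.2 and 88.1 in the isotype libraries. The arms were level at the lowest dose and apart at the top dose, where anti-PD1 was highest. Its slope was 0.33 ± 0.04 under anti-PD1 and 0.08 ± 0.04 under anti-LAG3, and the difference, 0.25 ± 0.05, had an adjusted p of 0.457 (edgeR). MYL6, a myosin light chain, stood at 161, 166 and 183 CPM under anti-PD1 and 194, 188 and 168 under anti-LAG3, a difference of -0.20 ± 0.04.

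TRAC, the constant region of the T cell receptor alpha chain (chr14:22547506-22552154), ran the other way from the EGR genes. It stood at 208, 140 and 107 CPM under anti-PD1, 159, 119 and 107 under anti-LAG3, and 119, 101 and 101 in the isotype libraries. Levels rose with dose in both arms, with slopes of 0.48 ± 0.04 and 0.29 ± 0.04. The difference of 0.19 ± 0.06 had an adjusted p of 0.691 (edgeR), and it passed with an offset for length and GC content (0.25, adjusted p = 0.0425). TRAV8-4, the variable segment at the same locus, stood at 97.0, 69.2 and 50.9 CPM under anti-PD1 and 76.7, 63.5 and 53.0 under anti-LAG3. It also sloped in the isotype libraries (0.17, adjusted p = 0.0300).

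The genes of smallest p in the list of receptor complex and proximal signalling were lower under anti-PD1. CD3D, a signalling chain of the receptor complex, stood at 125, 117 and 117 CPM under anti-PD1 and 152, 131 and 119 under anti-LAG3, lower at each dose, with the top anti-PD1 value above the lowest anti-LAG3 value. LCK, the kinase that starts receptor signalling, stood at 318, 314 and 318 against 355, 348 and 342, with no overlap. TRBC1, a beta chain constant region, differed by -0.15 ± 0.05, and ZAP70, the kinase that docks on the receptor, by -0.12 ± 0.05. None passed (adjusted p = 0.975, edgeR). Of the 37 genes of that list, 20 were lower and 17 higher by arm mean, and in the libraries at 1 µg/ml 20 were higher. The list held 0 called genes, with 5 lower at an unadjusted p under 0.05 (2.16% of all genes) and 0 higher (2.29%). Its median was -0.01. By slope, 6 of the 37 were called under anti-PD1 (0.2% of all genes) and 3 under anti-LAG3 (0.154%), all positive. No overlap of the 3 libraries per arm was seen with anti-PD1 lower in 6 of the 37 (5.67% of all genes) and with anti-PD1 higher in 1 (5.68%).

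ADA, adenosine deaminase, which clears adenosine, passed in both of the other fits named above (chr20:44619522-44652233). It stood at 217, 245 and 295 CPM under anti-PD1 in order of falling dose, 281, 306 and 321 under anti-LAG3, and 286, 253 and 252 in the isotype libraries. The anti-PD1 library was the lower at each dose, and the ranges overlapped, since the lowest anti-PD1 dose exceeded the top anti-LAG3 dose. The arm difference was -0.28 ± 0.27 in the fit to 12 libraries (adjusted p = 0.975, edgeR), -0.27 in the fit to 6 (adjusted p = 0.00491) and -0.27 ± 0.04 with a slope per arm (adjusted p = 0.00190). With the marker balance as a covariate in the fit to 12 libraries it was -0.04 ± 0.43 (unadjusted p = 0.935, edgeR). That error is wider than without the covariate and spans the other estimates. Its slope was -0.22 ± 0.03 under anti-PD1, the 1 negative slope called there, and -0.09 ± 0.03 under anti-LAG3, which was not called.

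Among genes chosen by the smallest p for the arm difference, SOX4, a transcription factor of lymphocyte progenitors, stood at 338, 323 and 306 CPM under anti-PD1 and 387, 344 and 350 under anti-LAG3. TMEM238 stood at 14.5, 14.4 and 14.3 against 19.2, 18.3 and 16.0, and ZNF566, a zinc-finger gene, at 5.68, 6.81 and 6.33 against 8.97, 7.78 and 7.80. In these 3 the arms did not overlap and anti-PD1 was lower (5.67% of all genes). PEG10, an imprinted gene derived from a retrotransposon, stood at 106, 103 and 101 CPM against 91.2, 88.0 and 93.7. CCZ1, a guanine nucleotide exchange subunit for RAB7, stood at 27.2, 29.5 and 29.8 against 22.0, 25.2 and 24.7, and PLEKHH3 at 4.23, 6.48 and 4.84 against 3.77, 3.51 and 3.39. Here anti-PD1 was higher without overlap (5.68% of all genes). The lack of overlap in these 6 genes follows largely from choosing them by p. The 6 fitted differences ran from -0.40 (ZNF566) to 0.53 (PLEKHH3), each with an adjusted p of 0.975 (edgeR). CCZ1 has a near-identical copy, so its counts are uncertain.

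Mitochondrially encoded mRNAs, which specify core subunits of the respiratory chain, had the largest median gap at a single dose among the 20 lists. At 1 µg/ml all 13 were higher under anti-PD1 with a median log2 ratio of 0.48, at 0.1 µg/ml 9 were higher (median 0.04), and at 0.01 µg/ml 0 were (median -0.09). Medians over all genes tested were 0.00, -0.01 and 0.00. MT-ND5, a subunit of complex I, stood at 2079, 2082 and 1835 CPM under anti-PD1, 1439, 1858 and 1948 under anti-LAG3, and 2807, 2601 and 2646 in the isotype libraries. The anti-LAG3 library at 1 µg/ml is the low one, and both arms lay below isotype throughout. The arm difference of MT-ND5 was 0.20 ± 0.11 and the slope difference 0.31 ± 0.06 (adjusted p = 0.146, edgeR). Without the anti-LAG3 library at 1 µg/ml the arm difference was 0.06 and 0 slope differences were called, with 644 genes at an unadjusted p under 0.05. Of the 13 mRNAs, 9 had a steeper slope under anti-PD1 at an unadjusted p under 0.05 (2.05% of all genes). MT-CO1, a subunit of complex IV, stood at 8949, 8589 and 8179 CPM against 6436, 8367 and 8317. Slope differences were called in 5 of 12 alternatives, 1 to 13 genes each, and MT-ND5 was among them in all 5. Against isotype, 3 of the 13 were called lower under anti-LAG3 (5.16% of all genes) and 0 under anti-PD1 (1.73%).

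Nuclear genes of 2 abundant, short classes leaned the opposite way. Of 79 cytosolic ribosomal protein genes tested, 0 were higher under anti-PD1 at 1 µg/ml, 0 at 0.1 µg/ml and 78 at 0.01 µg/ml, with medians of -0.13, -0.13 and 0.09. Of 75 nuclear genes for respiratory chain subunits, 5, 7 and 66 were higher, with medians of -0.13, -0.12 and 0.07. RPS21, a small subunit protein, stood at 895, 874 and 989 CPM under anti-PD1 and 1092, 1027 and 904 under anti-LAG3. NDUFB1, a complex I subunit, stood at 30.5, 29.1 and 33.5 against 40.6, 35.2 and 32.8, and SDHC, a complex II subunit, at 52.6, 46.9 and 52.3 against 59.7, 57.1 and 53.5. By arm mean 0 members of either list were called, and 47 of the 79 and 29 of the 75 had a shallower slope under anti-PD1 at an unadjusted p under 0.05 (3.39% of all genes). In the isotype libraries 16 of the 79 ribosomal protein genes were called with a positive slope on dose, against 115 of all 15535 genes. In each blockade arm 0 of the 79 were called by slope. Under anti-PD1 77 of their slopes were negative, and under anti-LAG3 all 79 were positive.

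**Figure D4:**
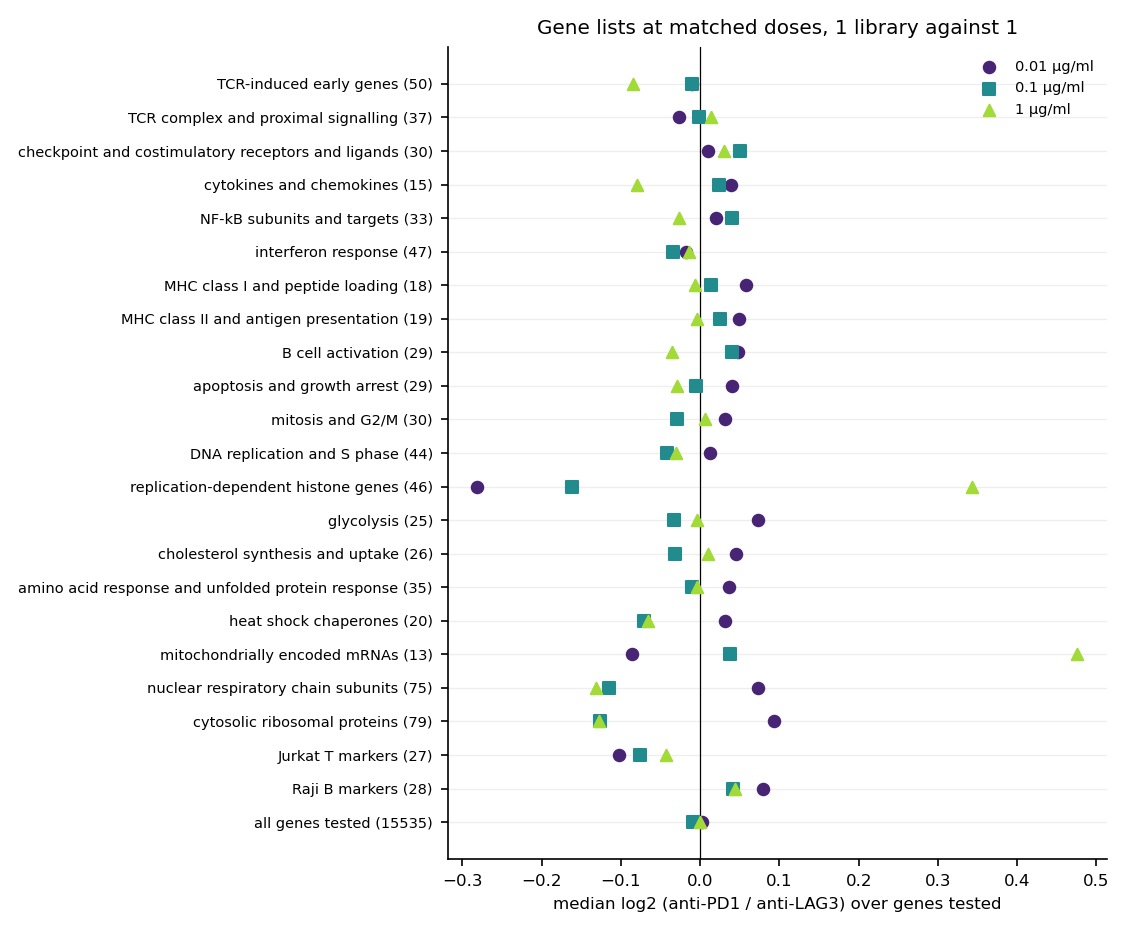
Median log2 ratio of anti-PD1 to anti-LAG3 (horizontal axis) over the tested genes of each list (number in brackets), with 1 symbol per dose. Mitochondrially encoded mRNAs reach 0.48 and histone genes 0.34 at 1 µg/ml, ribosomal protein genes lie at -0.13, -0.13 and 0.09, and most other lists lie near 0 at all 3 doses.

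Gene length moved with the ratio in a manner that differed by dose. The Spearman correlation of the single-library ratio with gene length over the genes of at least 10 CPM was 0.38 at 1 µg/ml, 0.29 at 0.1 µg/ml and -0.21 at 0.01 µg/ml, and with GC content -0.20, 0.30 and -0.12, as a description across genes. In the shortest of 4 equal length classes the median ratio was -0.06, -0.06 and 0.04, and in the longest 0.05, 0.03 and -0.02. The part of length in the list medians was not tested.

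**Figure D5:**
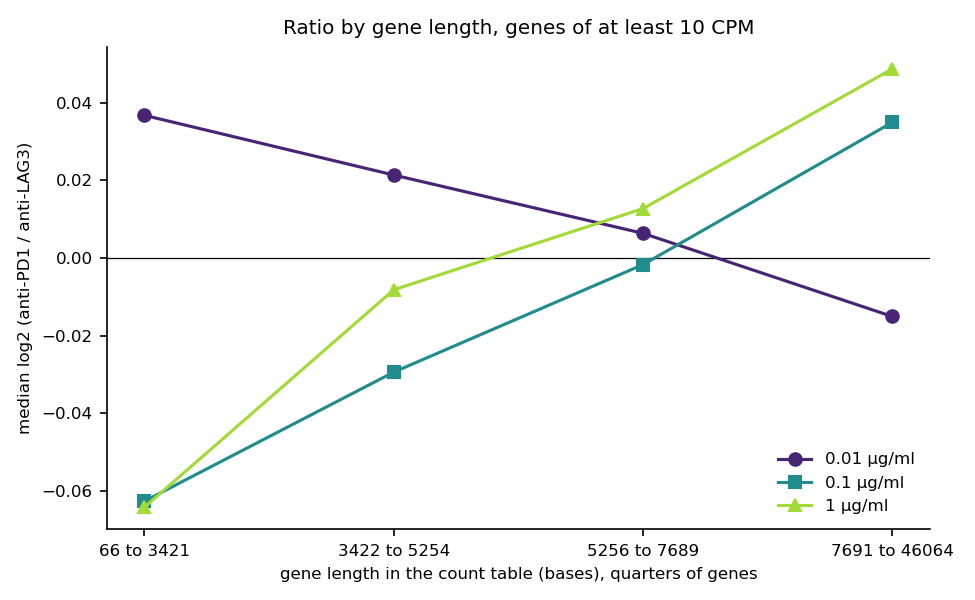
Median log2 ratio of anti-PD1 to anti-LAG3 (vertical axis) in 4 equal classes of gene length in bases (horizontal axis), for 8773 genes of at least 10 CPM at each dose. The lines for 1 and 0.1 µg/ml climb with length, to 0.05 and 0.03, and the line for 0.01 µg/ml falls to -0.02.

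Single libraries were also set against each other for large gaps, with no test. Past 1.5-fold were 4 genes higher (0.0456%) and 2 lower (0.0228%) under anti-PD1 at 1 µg/ml, 19 higher (0.217%) and 2 lower (0.0228%) at 0.1 µg/ml, and 0 in either direction (0.0%) at 0.01 µg/ml. The lower genes at 1 µg/ml were NR4A1 (log2 ratio -0.77) and EGR1 (-0.64), and the higher ones were MT-TV (0.81), MT-TF (0.66), MALAT1 (0.61) and MT-TL1 (0.59). At 0.1 µg/ml the lower genes were EGR1 (-0.62) and the pseudogene RPSAP47, and the highest was MKI67, the proliferation marker Ki-67, at 0.95. MKI67 did not hold that order at other doses: it stood at 140, 235 and 156 CPM under anti-PD1 and 143, 121 and 178 under anti-LAG3. The other 18 higher genes at 0.1 µg/ml were 5045 to 20476 bases long, and those with the largest ratios were SLX4 (0.68) and CCDC88C (0.67), named after their values were seen.

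In the remaining lists the median differences were small. Among 30 tested checkpoint and costimulatory genes, 33 of NF-kB, 47 of the interferon response, 25 of glycolysis and 26 of cholesterol synthesis and uptake, 0 differed in arm mean and the medians were 0.01, 0.02, -0.02, 0.02 and 0.00. All tested genes of glycolysis, of cholesterol synthesis and uptake, and of the amino acid and unfolded protein responses (35) had intervals inside 0.5 on either side of 0. So did the 44 genes of DNA replication, 18 of MHC class I and 19 of MHC class II. In mitosis and G2/M it was 29 of 30, MKI67 being the exception. Fewer intervals lay inside for checkpoint and costimulatory genes (18 of 30), NF-kB (30 of 33) and the interferon response (39 of 47). The share inside was 69.6% over all genes tested, 99.0% at a mean of at least 10 CPM and 31.6% below that. The lists were not matched for expression level, so these counts do not rank the pathways by likeness. Of 20 heat shock chaperones, 16 had an interval inside, 17 were lower and 3 higher under anti-PD1, and the median was -0.03. The interferon list held USP18, which trims ISG15 from proteins, at 7.34, 6.44 and 6.76 CPM under anti-PD1 and 8.90, 8.74 and 8.45 under anti-LAG3. It also held IFI6, an interferon-induced protein, at 14.7, 14.6 and 15.0 against 17.5, 18.1 and 15.9. Neither overlapped and neither passed (adjusted p = 0.975, edgeR). BCL3, an atypical inhibitor of NF-kB, was higher without overlap at 14.6, 16.2 and 15.2 CPM against 12.5, 12.9 and 14.1, a difference of 0.22 ± 0.08.

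Lists about cell growth and death also had 0 calls by arm mean. CDKN1B, the cell cycle inhibitor p27, stood at 49.6, 42.1 and 42.0 CPM under anti-PD1 and 51.4, 50.2 and 51.8 under anti-LAG3, and MDM2, the ligase that degrades p53, at 240, 237 and 236 against 209, 228 and 219. Neither overlapped, with differences of -0.20 ± 0.06 and 0.12 ± 0.04. FASN, fatty acid synthase, differed by 0.14 ± 0.06. Replication-dependent histone genes were the least settled list: 5 of 46 had an interval inside the limits (69.6% of all genes tested). Their median ratio was 0.34, -0.16 and -0.28 in order of falling dose. Most of these mRNAs lack a poly(A) tail, and many are near-identical copies.

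The last comparison was of the 2 cell lines themselves. T markers minus B markers averaged -1.37 ± 0.06 (SD, n = 3) under anti-LAG3 and -1.50 ± 0.10 under anti-PD1 on the log2 scale. The difference of -0.13 missed the threshold with libraries of an arm taken as interchangeable (exact permutation test, two-sided, p = 0.2, where 0.1 is the smallest p that 3 libraries against 3 can give), and that test ignores dose. At matched doses anti-PD1 was lower each time, by -0.08, -0.14 and -0.16 in order of falling dose, and paired by dose the exact sign-flip permutation test gave p = 0.25, the smallest that 3 pairs can give. Of 27 T markers tested 22 were lower under anti-PD1, 7 of them at an unadjusted p under 0.05 (2.16% of all genes), and 5 did not overlap (5.67%). Of 28 B markers 24 were higher, 3 at an unadjusted p under 0.05 (2.29%), and 7 did not overlap (5.68%). Summed T markers spanned 2368 to 2559 CPM under anti-LAG3 and 2220 to 2496 under anti-PD1, and summed B markers spanned 10530 to 10669 and 10799 to 11166. The 8 monocyte markers summed to 0.189 to 0.412 CPM in the 6 libraries. TRAT1, a T cell receptor adaptor, was lower without overlap (5.26, 5.01 and 5.56 CPM against 7.22, 6.87 and 6.67). PAX5, the B lineage factor, was higher without overlap (360, 386 and 372 against 334, 322 and 357), as was POU2AF1, a B cell coactivator of transcription (320, 339 and 318 against 296, 282 and 311). The part of the cell balance in the differences of T and B genes was not tested. The fit with the marker covariate called 0 genes by arm mean, with 520 at an unadjusted p under 0.05 (edgeR). The fit without it also called 0, with 691 at that level, so the call counts cannot measure that part.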

How the data were processed

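The labels name polyA RNA and the extraction text total RNA, so how RNA was selected is unclear. The authors deposited raw counts per gene symbol for 55782 symbols. GRCh38, DESeq2, featureCounts (Subread 1.5.2), STAR 2.5.2b and Trimmomatic 0.36 are named, per the submitters' processing notes. For annotation release, strand setting and multi-mapping the sources used here give nothing, so near-identical copies and antisense pairs are uncertain. The gene lengths used are those deposited with the counts, per the file headers. Not used were 4 count columns that match no sample and 9 comparison tables.

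Samples were grouped by treatment label. In R 4.3.3, edgeR 4.0.16 tested 15535 genes kept by filterByExpr (minimum count 10), scaled by TMM, with the quasi-likelihood F test and Benjamini-Hochberg adjustment over all of them. Arm means were fitted over 12 libraries with terms for arm and for dose class (6 residual degrees of freedom). Slopes on log10 dose were fitted separately by arm (4 residual degrees of freedom), in log2 per 10-fold dose. CPM values use TMM-scaled library sizes. The statistics were tested on simulated data. Markers were compared with an exact permutation test. A count of 0 allows up to 3 counts, 0.0951 to 0.128 CPM in these 6 libraries, for counting error only. Gene coordinates are those of GENCODE 29 on GRCh38. Of the tested genes 88.1% had a GC value.

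Named genes were PDCD1, LAG3, CD274, CD69, EGR1, EGR2, EGR3, IL2, IFNG, ADA and TRAC, the 3 smallest p in each direction for the arm difference, the 5 smallest p for the slope difference and members of each list with the smallest p. Others were named after their values were seen. In genes chosen by their p for the arm difference, a lack of overlap between the arms follows largely from that choice. The members and lists were chosen with earlier results of these data known. Alternatives were DESeq2 1.42.0, its size factors in edgeR, no filter, 6 libraries only, no dose term, a marker covariate and an offset for length and GC. Further alternatives were a slope per arm and each anti-PD1 or anti-LAG3 library left out in turn.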

Additional observations from a re-analysis of the deposited data

How the results depend on the processing

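The count of genes that differed in arm mean, 0, was also 0 under 12 of 14 alternatives. It was 6 with only the 6 libraries (all lower under anti-PD1) and 3 with a dose slope per arm, an alternative chosen after seeing the data. It was 0 each time when the 6 anti-PD1 and anti-LAG3 libraries were left out in turn. No isotype or combination library was left out singly. The count of slope differences, 0, was 1 with DESeq2, 13 without a filter on low counts (11 steeper under anti-PD1) and 7 with the offset for length and GC content. It was 0 to 11 when the same 6 libraries were left out in turn. The 11, from leaving out the anti-LAG3 library at 0.01 µg/ml, were 10 mitochondrially encoded genes steeper under anti-PD1 and NR4A1, and leaving out the anti-LAG3 library at 0.1 µg/ml gave 5. The marker difference stayed between -0.178 and -0.0820 with each library left out, was -0.17 by the median over markers (exact permutation test, p = 0.2), and was -0.12 after dropping markers under 10 CPM (exact p = 0.3). Libraries are paired across arms by dose only. As a replicate block, dose was already a term of the arm model, and the marker difference paired by dose was -0.127 (exact sign-flip permutation test, p = 0.25, chosen after seeing the data). Without the dose term the arm difference again called 0 genes, with 648 at an unadjusted p under 0.05. Over 102 named genes the sign of the arm difference changed in 19 of 1426 combinations of gene and alternative, and that of the slope difference in 124 of 1222. Depth limits genes under 10 CPM most.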

Other observations

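Genes called for a slope under anti-PD1 and not under anti-LAG3, included several lymphocyte genes not described above. CD5, a brake on T cell receptor signalling, stood at 33.0, 29.3 and 21.5 CPM in order of falling dose, against 31.6, 25.7 and 28.0 under anti-LAG3. CD6, a related scavenger receptor, stood at 33.9, 29.1 and 24.7 against 32.3, 27.1 and 25.7, and both arms lay above the isotype range of 21.7 to 22.2. SLFN5, a Schlafen family gene, stood at 51.1, 39.5 and 31.8 against 44.4, 39.2 and 36.5. Slopes of TOX (0.19 ± 0.04), IKZF2 (0.24 ± 0.04) and BACH2 (0.26 ± 0.06), transcription factors of lymphocytes, were also called under anti-PD1, and those under anti-LAG3 were 0.10 ± 0.04, 0.13 ± 0.04 and 0.13 ± 0.05. The slope differences of these 6 genes had adjusted p of 0.701 or above (edgeR). These genes were chosen after their values were seen.

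CCL17, a chemokine of activated B cells, had 12, 12 and 7 counts under anti-PD1 and 8, 5 and 4 under anti-LAG3, with 13, 11 and 4 in the isotype libraries. MALAT1, a nuclear long noncoding RNA, varied within arms as well as between them, at 149, 168 and 120 CPM under anti-PD1, 97.3, 163 and 132 under anti-LAG3, and 127, 229 and 211 in the isotype libraries.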
